A study of Mus musculus with 12 samples.

Results

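The unfolded protein response and the integrated stress response were followed here through 10 genes, *Eif2ak3*, *Ern1*, *Atf6*, *Atf4*, *Xbp1*, *Atf3*, *Ddit3*, *Asns*, *Chac1* and *Trib3*, in mouse spermatogonia from control and cryptorchid testes. The genes were taken by symbol as familiar sensors, transcription factors and targets of these responses, and all 10 were found among the 21859 genes of the expression table. All 10 also exceeded the low-expression limit that left 16932 genes to be tested. RNA was measured in 5 control and 7 cryptorchid libraries of sorted GFRa1+/KIT- cells, which are undifferentiated spermatogonia that carry the GDNF receptor GFRa1 and lack the differentiation marker KIT. All cells came from adult mice carrying a GFRa1-EGFP reporter allele, whose EGFP served for sorting. For the cryptorchid group the left testis had been attached to the abdominal wall 10 days earlier, which exposes it to body temperature, and the right testis served as the control. The labels give the control as WT and the other group as Cryptorchid. Control testes were digested at a lower temperature than cryptorchid testes during cell isolation, so digestion temperature and surgery cannot be told apart. The sources do not say which libraries come from the same mouse.

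The unfolded protein response begins at the membrane of the endoplasmic reticulum (ER), where PERK (*Eif2ak3*), IRE1a (*Ern1*) and ATF6 sense misfolded proteins in the lumen. PERK phosphorylates the initiation factor eIF2a, which lowers general translation but favours translation of *Atf4* mRNA, and other eIF2a kinases feed amino acid shortage, double-stranded RNA and heme deficiency into the same step, the integrated stress response. IRE1a removes an intron from *Xbp1* mRNA, and ATF6 is cut in the Golgi to release a transcription factor. In the testis, germ cells are sensitive to heat and to the loss of protein quality control. Phosphorylation, cleavage, splicing and translation do not appear in total RNA of a gene, so the values below are RNA levels only. These were bulk libraries, in which fewer cells of a type and less RNA per cell cannot be told apart.

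ATF4 and its partners bind the C/EBP-ATF response element (CARE), the ATF6 and XBP1 proteins bind the ER stress element (ERSE), and CREB-family factors bind the cAMP response element (CRE). To show which genes carry these letters next to their start, the 250 bases upstream of the RefSeq transcription start were searched on both strands in 9 of the 10 genes and in 3 related genes described below. *Atf6* was not analysed here for its promoter. CARE, spelled TGATGNAA, occurred in *Atf3*, *Chac1* and *Asns*, and in 3.45% of 32851 promoters. The windows of 30 bases (GRCm38.p6) are in the direction of the gene, with the motif in capitals. They are shown because they are the only such matches in the 9 genes searched. That of *Herpud1*, a target with a large difference below, is shown with them.
Atf3 (chr1:191183425-191183454, minus strand): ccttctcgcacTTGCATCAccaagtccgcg
Chac1 (chr2:119351038-119351067, plus strand): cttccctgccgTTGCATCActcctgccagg
Asns (chr6:7693214-7693243, minus strand): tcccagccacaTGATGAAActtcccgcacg
Herpud1 (chr8:94386306-94386335, plus strand): accacggcgggTTGCATCAgcccgcacccc
The capitals begin 110, 193, 23 and 112 bases upstream of the start of *Atf3*, *Chac1*, *Asns* and *Herpud1*, and in *Asns* alone the motif reads in the direction of the gene. The *Asns* window lies within the first exon of a longer GENCODE transcript. CRE, spelled TGACGTCA, was in 1.55% of all promoters and in none of the 9, but it was found 12 bases upstream of *Ppp1r15a*. ERSE, which joins CCAAT and CCACG by 9 bases, was in 0.113% of all promoters and, of the genes searched, in *Hspa5*, 65 bases upstream. The UPR element TGACGTGG, in 0.563% of all promoters, was found in none of the genes searched. CRE and UPR element share their first letters but differ in their last, so a match of one cannot be a match of the other.
Ppp1r15a (chr7:45526269-45526298, minus strand): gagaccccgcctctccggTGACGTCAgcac
Hspa5 (chr2:34772019-34772048, plus strand): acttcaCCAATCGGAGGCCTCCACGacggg
These matches describe letters only, and binding was not measured.

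Depth was uneven. Control libraries held 4511730 to 24345368 reads on genes and cryptorchid libraries 3306771 to 20027902. The libraries formed a pair of technical sets found in the values, replicates 1 to 3 of both groups and replicates 4 and above. In the former, 53.2% to 60.8% of genes with 1 to 20 reads had an even read number, against 48.2% to 50.5% in the latter, and differences are therefore also given within each set. Markers of undifferentiated spermatogonia summed to 1318 to 1939 RPM (reads scaled to the library total) in control and 1463 to 2255 RPM in cryptorchid libraries, and 0 of the 16 passed the thresholds given below. Spermatid markers summed to 634 to 3438 RPM in control and 33.2 to 2245 RPM in cryptorchid libraries, and 5 of 10, among them *Prm1*, *Prm2* and *Tssk6*, were lower. Spermatocyte markers summed to 421 to 1758 RPM in control and 291 to 2023 RPM in cryptorchid libraries. Sertoli cell markers summed to 166 to 838 and 142 to 896 RPM, and those of differentiating spermatogonia to 320 to 959 and 363 to 926 RPM. Of the differentiating spermatogonia markers 1 was higher (*Stra8*) and 1 lower (*Dnmt3b*), and no spermatocyte or Sertoli cell marker was called. Those of Leydig cells, peritubular myoid cells, endothelial cells and macrophages each summed to at most 56.6 RPM in any library, with 4 higher (*Des*, *Mrc1*, *Cdh5* and *Tie1*) and 1 lower (*Actg2*), and the Leydig cell genes *Cyp17a1*, *Hsd3b1* and *Lhcgr* were under the low-expression limit. The immediate early genes, which can be induced during dissociation, had a median log2 fold change of 0.30 with 0 of 14 called. They summed to 188 to 792 RPM (median 432) in control and 186 to 1470 RPM (median 250) in cryptorchid libraries. The part of these cell types in the results below was not tested. Replicate 3 of both groups stood apart in *Atf4* and *Hspa5*, so differences that these libraries move are also given without them. They also differed as whole libraries. Control and cryptorchid replicate 3 had the lowest share of reads on genes in their group (74.5% and 80.9%). Their shares of even read numbers were the highest of their group (60.8% and 58.7%).

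The 10 genes as a group did not shift in one direction in cryptorchid spermatogonia. At the study's thresholds of 2-fold and unadjusted *P* under 0.05 in limma, *Trib3* alone was lower and no gene was higher, where 5.92% of all genes tested were called (3.56% higher and 2.36% lower). Of the 10, 1 had an unadjusted *P* under 0.05 whatever the fold, against 9.48% of all genes. No gene of the 10 had an adjusted *P* under 0.05, which was reached by 2 genes (0.0118%) of the whole table. The median log2 fold change of the 10 was 0.08 and that of all genes tested 0.10. Within replicates 1 to 3 these medians were 0.21 and 0.06, and within replicates 4 and above -0.24 and 0.01. No gene had its cryptorchid libraries all above or all below its control libraries, against 0.839% of all genes (0.555% above and 0.283% below). Differences below are of mean log2 RPM, cryptorchid minus control, with 95% intervals and adjusted *P*-values from limma and *P*-values from the exact two-sided rank sum test, the smallest of which can be 0.00253. The intervals of *Eif2ak3*, *Ern1*, *Atf6* and *Asns* stayed within 1.21 log2 units of 0, while those of *Atf3* and *Chac1* extended past 2.

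**Figure D1:**
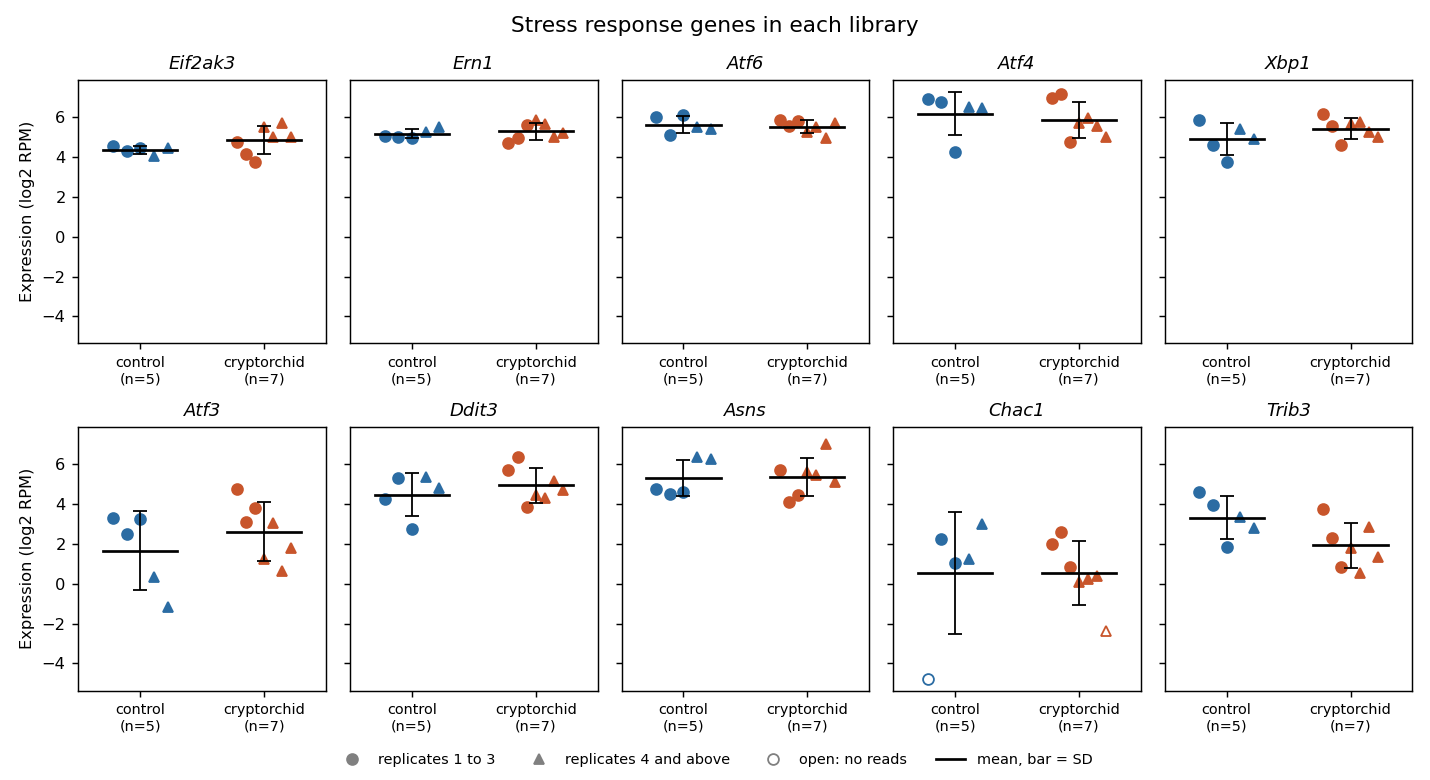
Expression of the 10 genes (log2 RPM, vertical axis) in the 5 control and 7 cryptorchid libraries, with circles for replicates 1 to 3, triangles for replicates 4 and above, open symbols for libraries without reads, and the mean with SD. The groups overlap in every gene, and 4 cryptorchid libraries lie below every control library for Trib3.

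*Eif2ak3*, the gene of the eIF2a kinase PERK (chr6:70844515-70905245, plus strand), had similar levels in all control libraries and a wider spread in cryptorchid libraries. Its control values were 4.58, 4.32, 4.44, 4.03 and 4.47 log2 RPM in replicates 1 to 5, and its cryptorchid values ran from 3.74 through a median of 4.996 to 5.70. Of the 7 cryptorchid libraries, 5 lay above every control library and 1 below. Control libraries averaged 4.37 ± 0.210 (SD, n = 5), and cryptorchid libraries 4.84 ± 0.698 (SD, n = 7). The difference was 0.47 (95% interval -0.27 to 1.21, exact *P*=0.202, adjusted *P*=0.708). It was -0.23 within replicates 1 to 3 and 1.05 within replicates 4 and above, where it met both thresholds (adjusted *P*=0.161), and the difference between the sets did not pass an interaction term (adjusted *P*=0.9996). Parts of its exons, 485 bases, overlap a gene on the other strand, and as the counting strand is not stated these reads cannot be told apart.

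*Ern1*, which encodes the kinase and nuclease IRE1a (chr11:106394650-106487852, minus strand), and *Atf6* (chr1:170704674-170867771, minus strand) had the narrowest intervals of the 10 genes. *Ern1* measured 5.08, 5.02, 4.97, 5.28 and 5.53 log2 RPM in control libraries and ran from 4.69 through 5.21 (median) to 5.87 in cryptorchid libraries. Its difference was 0.11 (95% interval -0.47 to 0.70, exact *P*=0.876, adjusted *P*=0.925). *Atf6* measured 5.99, 5.10, 6.11, 5.49 and 5.41 log2 RPM in control libraries and ran from 4.98 through 5.54 (median) to 5.84 in cryptorchid libraries. Its difference was -0.09 (95% interval -0.65 to 0.47, exact *P*=0.876, adjusted *P*=0.933). A single cryptorchid library lay outside the control range of *Atf6*, while the cryptorchid values of *Ern1* extended beyond the controls on both sides.

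*Atf4*, the transcription factor at the centre of the integrated stress response (chr15:80255184-80257541, plus strand), had the highest mean level per exon length of the 10 genes. Control libraries measured 6.91, 6.78, 4.25, 6.54 and 6.46 log2 RPM, and cryptorchid libraries ran from 4.76 through 5.74 (median) to 7.15. The lowest value of each group was in its replicate 3, with 194 reads in control. The difference was -0.31 (95% interval -1.32 to 0.70, exact *P*=0.755, adjusted *P*=0.875). Without both libraries of replicate 3 it was -0.61 (adjusted *P*=0.493). Within replicates 1 to 3 it was 0.31, and within replicates 4 and above -0.93 (adjusted *P*=0.147), which was under the unadjusted threshold but not 2-fold.

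*Xbp1*, the target of IRE1a splicing (chr11:5520659-5525893, plus strand), was at 5.89, 4.59, 3.77, 5.44 and 4.90 log2 RPM in control libraries and ran from 4.59 through 5.58 (median) to 6.16 in cryptorchid libraries. Most cryptorchid libraries fell within the control range. The difference was 0.52 (95% interval -0.25 to 1.29, exact *P*=0.268, adjusted *P*=0.691), with 0.70 and 0.26 within the sets and 0.37 without both libraries of replicate 3. The values sum the spliced and unspliced mRNA.

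*Atf3*, a transcription factor gene that many stresses induce (chr1:191170296-191218039, minus strand), was set apart by the technical sets. Its control values were 3.32, 2.51, 3.26, 0.35 and -1.17 log2 RPM, and its cryptorchid values ran from 0.62 through 3.04 (median) to 4.77. Replicates 1 to 3 of both groups averaged 3.47 and replicates 4 and above 0.98, and this difference in level between the sets passed the test over all genes (adjusted *P*=0.0168), as it did for 5.92% of genes. The pooled difference between the groups was 0.97 (95% interval -0.88 to 2.82, exact *P*=0.530, adjusted *P*=0.761). Within the sets it was 0.87 and 2.08, and with a term for the set it was 1.44 ± 0.602 (SE) and met the 2-fold threshold and the unadjusted one (adjusted *P*=0.374). Its reads per library were 2 to 244 in the controls and 7 to 610 after surgery.

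*Ddit3* encodes CHOP, the pro-apoptotic factor downstream of PERK and ATF4 (chr10:127290774-127296288, plus strand). Control libraries were at 4.25, 5.29, 2.74, 5.34 and 4.79 log2 RPM, and cryptorchid libraries ran from 3.85 through 4.73 (median) to 6.39. The control range held most cryptorchid values, and replicate 3 was again lowest in each group. The difference was 0.47 (95% interval -0.56 to 1.497, exact *P*=0.755, adjusted *P*=0.797), with 1.23 within replicates 1 to 3 and -0.39 within replicates 4 and above. Without both libraries of replicate 3 it was 0.22. Its exons overlap 81 bases of genes on the other strand, *Mars* among them.

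**Figure D2:**
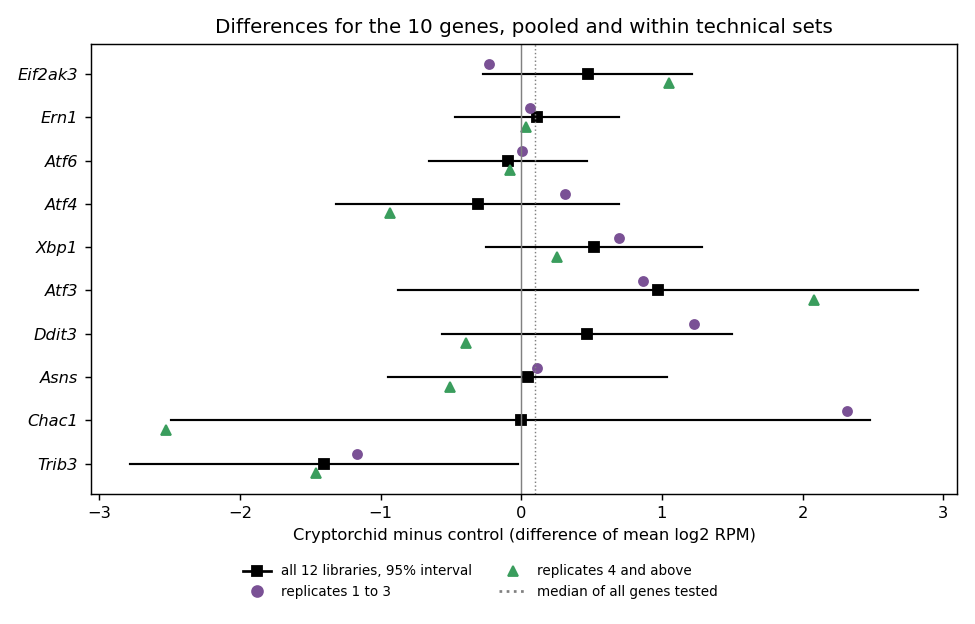
Difference of mean log2 RPM (cryptorchid minus control, horizontal axis) for the 10 genes, with squares and 95% intervals for all 12 libraries, circles for replicates 1 to 3 and triangles for replicates 4 and above; the dotted line is the median of all genes tested. Trib3 has the only interval below 0 (-2.78 to -0.02), and the sets lie on opposite sides of 0 for Eif2ak3, Atf4, Ddit3, Asns and Chac1, and narrowly for Atf6 (0.0029 and -0.08).

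*Trib3*, a pseudokinase gene that ATF4 and CHOP induce and whose product restrains them (chr2:152337422-152344032, minus strand), was the gene of the 10 that was lower in cryptorchid spermatogonia. Control libraries measured 4.62, 3.98, 1.86, 3.37 and 2.83 log2 RPM, and cryptorchid libraries ran from 0.55 through 1.79 (median) to 3.78. Of the 7 cryptorchid libraries, 6 lay below the control mean and 4 below every control library, and control replicate 3 lay among the cryptorchid values. The means were 3.33 ± 1.06 (SD, n = 5) and 1.93 ± 1.15 (SD, n = 7), resting on 32 to 597 reads per control library and 5 to 307 per cryptorchid library. The difference was -1.40 ± 0.655 (SE), with a 95% interval of -2.78 to -0.02 (adjusted *P*=0.521). Its unadjusted *P*-value in limma was 0.0464, just inside the threshold, and the exact rank sum test gave *P*=0.0732. It was -1.17 within replicates 1 to 3 and -1.46 within replicates 4 and above, neither of which met the thresholds alone. The call was lost without control replicate 1, 2 or 4 or cryptorchid replicate 3, 4, 5 or 7, and with a term for the technical set (-1.31, adjusted *P*=0.471). With single libraries left out the difference ran from -1.77 to -1.08.

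*Asns*, the asparagine synthetase gene (chr6:7675169-7693254, minus strand), did not follow the groups. It was at 4.78, 4.52, 4.63, 6.35 and 6.29 log2 RPM in control libraries and ran from 4.09 through 5.48 (median) to 7.04 in cryptorchid libraries. Control replicates 4 and 5 stood above the other control libraries, and the set means of 4.70 and 5.98 differed over both groups (adjusted *P*=0.0367). The difference between the groups was 0.05 (95% interval -0.94 to 1.03, exact *P*=1, adjusted *P*=0.985).

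*Chac1*, which encodes an enzyme that degrades glutathione (chr2:119351229-119354381, plus strand), was the least expressed of the 10 per exon length. Its low read numbers did not allow a close comparison. Control replicate 1 and cryptorchid replicate 7 had no *Chac1* reads, and the other libraries had at most 135. Control replicate 1 held 22901521 reads on genes and control replicate 5, with 36 *Chac1* reads, 4511730, so the missing reads did not follow library depth. The control values were -4.76 (no reads), 2.23, 1.04, 1.24 and 2.995 log2 RPM, and cryptorchid values ran from -2.38 (no reads) through 0.40 (median) to 2.61. The values without reads are placeholders that follow the depth of the library. The difference was -0.005 (95% interval -2.49 to 2.48, exact *P*=0.432, adjusted *P*=0.9995). The sets lay far apart, with 2.31 in replicates 1 to 3 and -2.53 in replicates 4 and above, where it met both thresholds (adjusted *P*=0.267), and the interaction with the set was under the unadjusted threshold only (adjusted *P*=0.9996). For the interaction, 1.59% of all genes had an unadjusted *P* under 0.05 and 0 an adjusted one.

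Per kilobase of exon, control levels in log2 RPM per kb ran from *Atf4* (4.95), *Asns* (3.86), *Ddit3* (3.71), *Xbp1* (3.22), *Atf6* (2.42), *Trib3* (2.24), *Ern1* (2.14) and *Eif2ak3* (1.78) down to *Atf3* (0.55) and *Chac1* (-0.16). Within libraries, *Ern1* exceeded its neighbour *Eif2ak3* by 0.37 ± 0.334 (SD, 5 of 5 control libraries), and the other neighbours in this order differed by less than their SD over the control libraries. In cryptorchid libraries *Ern1* (2.26) and *Eif2ak3* (2.25) were level, and *Trib3* (0.84) came after both and after *Atf3* (1.52).

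*Atf4* levels were then compared with those of the other 9 genes across the 12 libraries, since ATF4 induces several of them. *Ddit3* was highest with a Pearson's r of 0.773 (permutation *P*=0.00232, adjusted over 9 relations 0.0209) and a Spearman's rho of 0.713 (permutation *P*=0.0121, adjusted 0.109). *Trib3* had r=0.678 (permutation *P*=0.0167, adjusted 0.0502) and rho=0.636 (permutation *P*=0.0299, adjusted 0.135). *Xbp1* had r=0.672 (permutation *P*=0.0165, adjusted 0.0502) and rho=0.587 (permutation *P*=0.0491, adjusted 0.147). Without the libraries farthest from the median of *Atf4*, which were replicate 3 of both groups, r was 0.495 for *Ddit3*, 0.648 for *Trib3* and 0.271 for *Xbp1*, so the relations with *Ddit3* and *Xbp1* rested on those libraries. Within replicates 1 to 3 and within replicates 4 and above, r was 0.868 and 0.262 for *Ddit3*, 0.750 and 0.510 for *Trib3*, and 0.821 and 0.127 for *Xbp1*. *Asns* had r=0.0475 and *Atf3* r=-0.0179. *Chac1* had r=0.156 over all libraries, -0.0610 within replicates 1 to 3 and 0.896 within replicates 4 and above (permutation *P*=0.0167, unadjusted), and 0.619 without control replicate 1, which had no *Chac1* reads (permutation *P*=0.0375, unadjusted). *Eif2ak3* had r=-0.119 over all libraries and -0.726 without both replicate 3 libraries (permutation *P*=0.0187, unadjusted), with 0.433 and -0.688 within the sets. The libraries share technical sets and perhaps mice, so they may not be independent.

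**Figure D3:**
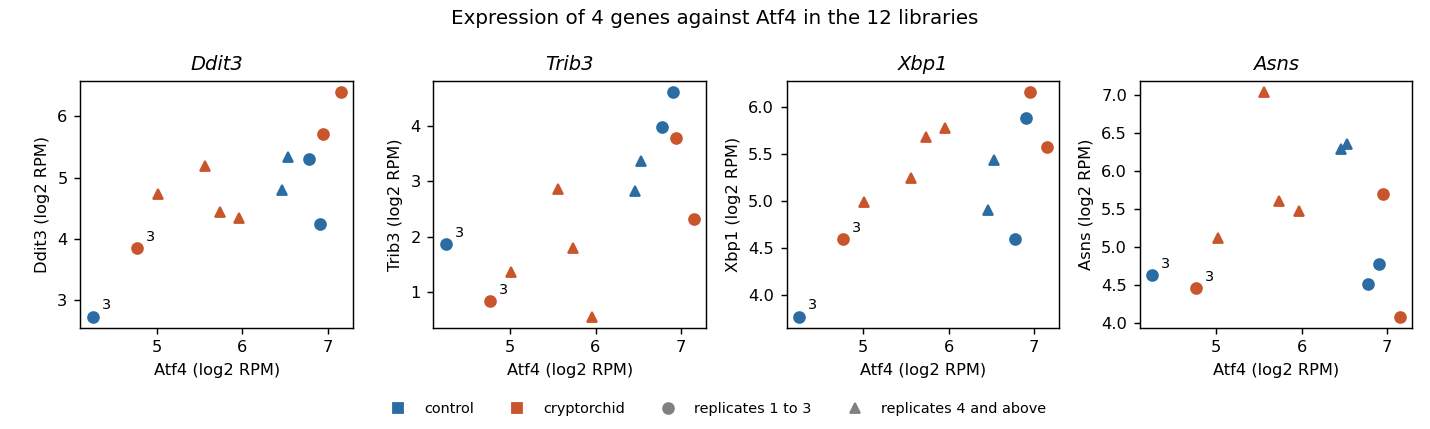
Expression of Ddit3, Trib3, Xbp1 and Asns against Atf4 (both axes log2 RPM) in the 12 libraries, in blue for control and orange for cryptorchid, with circles for replicates 1 to 3 and triangles for replicates 4 and above; replicate 3 of each group is marked. The 2 marked libraries have the lowest Atf4 (4.25 and 4.76) and lie at the low end for Ddit3 and Xbp1.

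The wider pathways were described by 6 lists holding 121 further genes, of which 118 were tested. With the 10 genes above, 128 genes were tested, and 0 were higher and 5 lower at the study's thresholds (3.91%, against 5.92% of all genes in either direction and 2.36% lower). At an unadjusted *P* under 0.05 alone, 2 were higher and 11 lower, where all genes had 5.67% higher and 3.82% lower. None had an adjusted *P* under 0.05, the smallest being 0.208, and the median log2 fold change was -0.03. In limma with a block for replicate number, single genes were followed only for the 10 and for the genes named by the rule given with the processing. Of these, *Eif4ebp1*, *Vars*, *Herpud1*, *Gcn1*, *Canx* and *Sec63* had an adjusted *P* under 0.05. So did 949 of the 16932 genes tested, and that fit is described in the last paragraph. The other genes of the lists were not read from it. The 5 lower genes were *Creb3l3*, *Eif4ebp1*, *Trib3*, *Vars* and *Herpud1*, and each was lower within both technical sets. The sets are parts of the libraries in which these genes were called, so the shared direction is not a separate test.

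**Figure D4:**
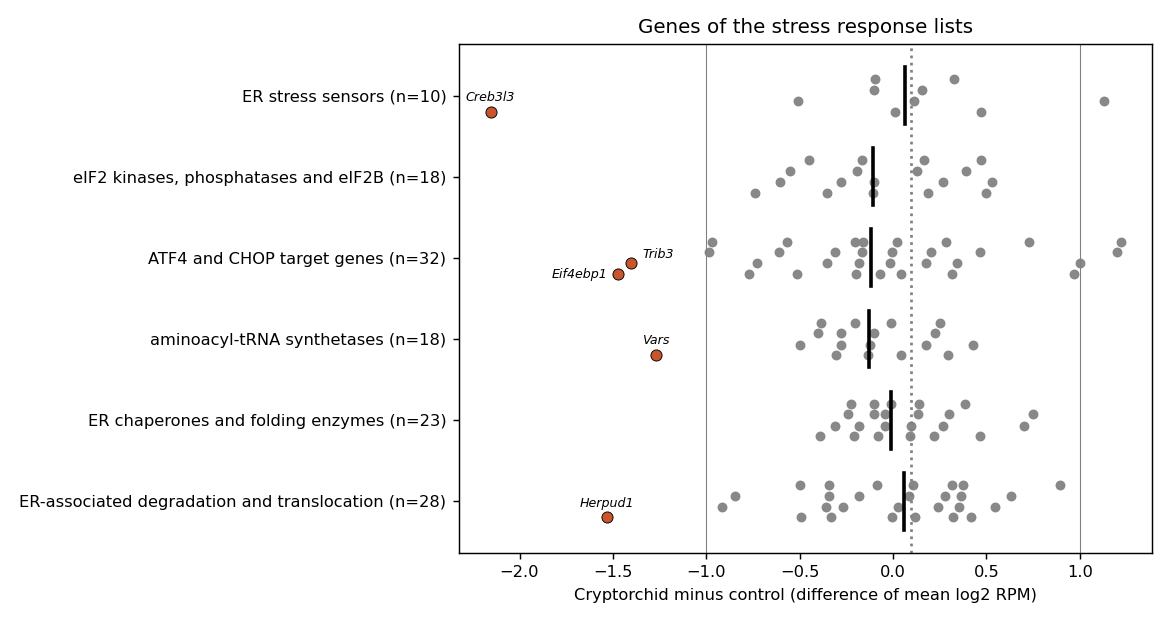
Difference of mean log2 RPM (cryptorchid minus control, horizontal axis) for the tested genes of each list, with a bar at the list's median, a dotted line at the median of all genes tested (0.10) and grey lines at 2-fold; genes called at the study's thresholds are in orange. The 5 called genes are all below -1 and the list medians lie between -0.13 and 0.06.

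Among the ER stress sensors and ER-anchored transcription factors, 0 of 10 genes were higher and 1 was lower, with a median log2 fold change of 0.06. *Creb3l3*, an ER-anchored factor known mainly from the liver, was low throughout, with 0 to 79 reads per library. It ranged from 0.15 to 1.71 log2 RPM in control and from -3.22 to 0.38 in cryptorchid libraries, 6 of which lay below every control library. The difference was -2.16 ± 0.858 (SE, adjusted *P*=0.436). *Creb3l1*, of the same family, had the highest difference of the list (1.13, adjusted *P*=0.675), and with voom on recovered reads it met both thresholds (1.59, adjusted *P*=0.436).

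The eIF2 kinases, phosphatases and subunits of its exchange factor eIF2B, 18 genes, had 0 higher and 0 lower and a median of -0.11, and none of them reached an unadjusted *P* under 0.05. *Gcn1*, the ribosome-bound activator of the kinase GCN2, had the lowest difference (-0.74, adjusted *P*=0.590), and 6 of its 7 cryptorchid libraries lay below every control library, while cryptorchid replicate 3 stood far above them. Without that library the difference was -1.03 (adjusted *P*=0.258), and within replicates 4 and above it was -1.09 (adjusted *P*=0.0595). Both met the 2-fold and unadjusted thresholds. Control replicate 3 was likewise the highest control library (9.97 log2 RPM). Without both replicate 3 libraries the difference was -0.73 (adjusted *P*=0.188 in limma), under the unadjusted threshold but short of 2-fold. *Impact*, a competitor of GCN1, had the highest difference (0.53). *Ppp1r15a*, whose product GADD34 directs dephosphorylation of eIF2a, averaged 5.54 ± 1.18 (SD, n = 5) in the controls against 5.19 ± 1.27 (SD, n = 7) after surgery. Its difference was -0.35 (adjusted *P*=0.885), with 0.44 and -0.79 within the sets.

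Of the target genes of ATF4 and CHOP, 32 of 35 were tested, 5 of them belonging to the 10 genes above. None was higher and 2, *Trib3* and *Eif4ebp1*, were lower, with a median of -0.12. The sets lay on opposite sides of 0, with a median of 0.19 in replicates 1 to 3 and -0.51 in replicates 4 and above. At an unadjusted *P* under 0.05 alone, 6 were lower and 0 higher, against 3.82% lower and 5.67% higher of all genes. *Eif4ebp1*, which encodes the translation repressor 4E-BP1, ranged from 5.16 to 7.10 log2 RPM in control and from 4.21 to 5.90 in cryptorchid libraries, 4 of which lay below every control library. Its difference was -1.47 ± 0.368 (SE, adjusted *P*=0.208), with -1.08 and -1.89 within the sets. The other 4 of the 6, named after their values were seen, were *Sesn2* (-0.97), a stress-induced inhibitor of mTORC1, and the serine and one-carbon enzyme genes *Shmt2* (-0.99), *Mthfd2* (-0.73) and *Psat1* (-0.61), and none of these was changed 2-fold. *Ddit4*, whose product REDD1 also inhibits mTORC1, was 2.17 ± 0.799 (SD, n = 5) and 3.16 ± 0.485 (SD, n = 7), a difference of 0.999 that did not pass (adjusted *P*=0.546), although 5 of 7 cryptorchid libraries lay above every control library. It met the 2-fold and unadjusted thresholds with voom on recovered reads (1.05, adjusted *P*=0.409) and without control replicate 1 (1.19), control replicate 4 (1.24) or cryptorchid replicate 7 (1.17).

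The cytosolic aminoacyl-tRNA synthetases, many of which ATF4 induces, had 0 of 18 higher and 1 lower, with a median of -0.13. *Vars*, valyl-tRNA synthetase, ranged from 7.07 to 8.81 log2 RPM in control and from 6.03 to 7.75 in cryptorchid libraries, 5 of which lay below every control library. Its difference was -1.27 ± 0.340 (SE, adjusted *P*=0.223), with -0.86 and -1.54 within the sets. *Lars* had the highest difference of the list (0.43).

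ER chaperones and folding enzymes, which XBP1 and ATF6 induce, had 0 of 23 higher or lower at the thresholds and a median of -0.01. That median was -0.14 in replicates 1 to 3 and 0.17 in replicates 4 and above. *Hspa5*, the chaperone BiP and the most used reporter of ER stress, averaged 7.89 ± 0.964 (SD, n = 5) in the controls against 8.19 ± 0.753 (SD, n = 7) after surgery, a difference of 0.30 (adjusted *P*=0.861). As with *Atf4*, replicate 3 was lowest in both groups, at 6.22 and 6.65, and without both of these libraries the difference was 0.14. *Canx*, the lectin chaperone calnexin, had the highest difference (0.75, adjusted *P*=0.559), with 5 of 7 cryptorchid libraries above every control library, and *Ero1l* the lowest (-0.39).

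ER-associated degradation and translocation had 0 of 28 genes higher and 1 lower, with a median of 0.06. *Herpud1*, a membrane protein of the degradation complex whose promoter holds the CARE shown above, ranged from 4.01 to 6.21 log2 RPM in control and from 2.71 to 4.43 in cryptorchid libraries, 4 of which lay below every control library. Its difference was -1.53 ± 0.412 (SE, adjusted *P*=0.223), with -1.32 and -1.99 within the sets. *Sec63*, a cofactor of the translocon, had the highest difference (0.90), which was under the unadjusted threshold but short of 2-fold. At an unadjusted *P* under 0.05 alone in limma, 1 gene of this list was higher and 3 were lower, against 5.67% higher and 3.82% lower of all genes.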

How the data were processed

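Per the labels, Smart-seq2 libraries were made from about 200 cells, without molecular identifiers. The authors trimmed reads with Trim Galore (0.6.6), mapped them to mm10 with HISAT2 (2.1.0), checked them with FastQC (0.11.8), counted reads per protein-coding gene with SeqMonk and deposited one log2 RPM value per gene and library, without pooling. Versions are from the submitters' processing notes. The counting strand is not stated.

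Read numbers were recovered from the steps between low values, which came out whole (within 0.01) for 100% of values under 1000 reads. A gene without reads stands at 0.9 reads. The 31 pairs of replicates differed by 12.8 to 253 times sampling noise (chi-square per degree of freedom), so each library counted as 1 sample. *P*-values measure the spread between these libraries, which may be technical, and read numbers give counting error only.

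The deposited log2 values of 16932 genes with log2 mean RPM above -1 were tested in limma 3.58.1 (R 4.3.3; lmFit, eBayes with trend) without a further pseudocount, and adjusted over all of them by Benjamini-Hochberg. The test was tried on simulated data with large differences, the same spread for every gene and no technical sets. It therefore does not show how the test performs on small differences or with such sets. Exact rank sum tests (two-sided) and correlations (100000 permutations) used Python 3.11.15, numpy 2.4.6, pandas 2.3.3 and scipy 1.17.1, and plots matplotlib 3.10.9. Positions of genes were read from GENCODE vM21 (GRCm38, the build of mm10), and promoter sequences are from RefSeq (GRCm38.p6).

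Genes named from each list were the called ones (at most 4) and, where fewer than 2 were called, the highest and lowest difference, with *Hspa5*, *Ppp1r15a*, *Ddit4* and *Herpud1* always. The 10 genes, the lists and the tests were chosen with earlier results of these data known. Alternatives were other normalizations, pseudocounts, filters, array weights, voom on recovered reads, a replicate block, technical sets and leaving out libraries. The interaction with the set, levels between sets and leaving out both replicate 3 libraries were chosen after seeing the data.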

Additional observations from a re-analysis of the deposited data

Results flagged for a closer look

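Single libraries of 24 genes were compared with the rest of their group, and 5 of 48 pairs of gene and group held a library far from the others, where chance gives about 1 in 20. *Atf4* was lowest in control replicate 3 (4.25 log2 RPM, 194 reads), with the other control libraries at 6.46 to 6.91. *Hspa5* was lowest in the same library (6.22, others 8.09 to 8.70) and in cryptorchid replicate 3 (6.65, others 8.11 to 9.11). *Gcn1* was highest in cryptorchid replicate 3 (9.77, others 7.46 to 7.9997), and without both replicate 3 libraries its difference of -0.73 was under the unadjusted threshold (adjusted *P*=0.188 in limma). *Chac1* was lowest in control replicate 1 (-4.76, no reads), with the others at 1.04 to 2.995.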

How the results depend on the processing

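With both libraries of replicate 3 left out, the count of called genes among the 10 stayed at 1 (*Trib3*, -1.59), and of the other named genes *Creb3l3* lost its call (-1.89) while *Canx* (0.59) and *Gcn1* reached an unadjusted *P* under 0.05. Of all values recomputed under the alternatives, 984 were counted as unchanged. For single genes and correlations this meant the same direction and the same side of the threshold. Medians of gene lists were counted there even where they changed sign. The median of the 10 genes did so with array weights (-0.10) and in replicates 4 and above (-0.24). Of the others, 39 newly passed the threshold, 32 no longer did, 48 counts or values without a test moved and 54 changed direction. Genes of the whole table with an adjusted *P* under 0.05 numbered 2, and 4 with median centring or quantile normalization, 5 with log2(RPM + 1), 476 with array weights, 46 with a technical set term, 0 within either set alone and 0 to 9 with a library left out. Genes higher at the study's thresholds numbered 603, but 385 with a low-expression limit of 2 and 287 in replicates 1 to 3 alone. Genes lower numbered 399, but 703 with array weights, 635 with the set term and 705 in replicates 4 and above alone. Among the 10 genes, 1 had an unadjusted *P* under 0.05, and 3 with array weights, 0 with voom on recovered reads, 0 in replicates 1 to 3, 3 in replicates 4 and above and 0 to 1 with a library left out. The share of all genes under this threshold alone was not taken for these alternatives, so the counts cannot be set against it. The count lower was 1, but 0 with voom, with the set term and in replicates 1 to 3, and 0 to 1 with a library left out, and in replicates 4 and above the gene lower was *Chac1* in place of *Trib3*. The count higher was 0, but 1 with the set term (*Atf3*) and 1 in replicates 4 and above (*Eif2ak3*).

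Some differences changed direction. In replicates 1 to 3 *Eif2ak3* was -0.23, *Atf6* 0.0029, *Atf4* 0.31, *Ppp1r15a* 0.44 and *Chac1* 2.31. In replicates 4 and above *Ddit3* was -0.39 and *Asns* -0.51. With array weights *Ddit3* was -0.10 and *Asns* -0.22, which was -0.022 with median centring, -0.0197 with quantile normalization and -0.18 with the set term. *Chac1* was 0.99 with voom, 0.0355 with the set term and 0.0696 without both replicate 3 libraries. With a library left out, *Asns* ran from -0.24 to 0.31, *Chac1* from -1.33 to 0.61, *Atf6* from -0.223 to 0.0294 and *Hspa5* from -0.12 to 0.56. Correlations with *Atf4* changed sign for *Eif2ak3* in replicates 1 to 3 (0.433), *Chac1* in replicates 1 to 3 (-0.0610) and *Ern1* in replicates 4 and above (0.263). That of *Atf3* was 0.126 as Spearman's rho, 0.157 with median centring and 0.0927 with quantile normalization, and that of *Asns* -0.0350, -0.182 and -0.134. Without the libraries farthest from the median of *Atf4* they were 0.287 for *Atf6*, 0.388 for *Atf3*, -0.411 for *Asns* and -0.726 for *Eif2ak3*. With a library left out, they ran from -0.426 to 0.0333 for *Atf6*, -0.198 to 0.119 for *Atf3* and -0.123 to 0.256 for *Asns*. Without the low-expression filter the median of all genes was 0.23, a shift of 0.13. The cause of these changes was not tested.

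Replicate numbers were given to both groups, and deviations of same-numbered libraries had correlations of 0.0488 to 0.411, with 4 of 5 over 0.1 and 4 of 5 highest for their own number. This is a hint of pairing from the data, but 1 pair fell short and no source says that a number marks a mouse, so the fit without the block was kept. With the replicate block, in which cryptorchid replicates 6 and 7 have no partner, 949 genes had an adjusted *P* under 0.05 and 900 were lower at the study's thresholds. Among the 10 genes the block gave 3 with an unadjusted *P* under 0.05 (*Trib3*, *Xbp1* and *Atf3*), of which 1 was higher 2-fold. Among the other named genes, the block gave an adjusted *P* under 0.05 in limma for *Eif4ebp1*, *Vars*, *Herpud1*, *Gcn1* (-0.58), *Canx* (0.58) and *Sec63* (0.85), and *Hspa5* (0.32) and *Ddit4* (1.12) came under the unadjusted threshold, while *Creb3l3* (-1.73) lost its call. Under the block *Asns* was -0.24, *Chac1* 0.61 and *Ppp1r15a* 0.0468. Low read numbers limit *Trib3*, *Chac1*, *Creb3l3*, *Creb3l1* and *Atf3*, each with under 10 reads in at least 1 library. For *Trib3*, the called gene of the 10, the lowest cryptorchid library had 5 reads.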
